A study of Homo sapiens with 20 samples.

Results

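The non-P450 phase I enzymes examined here are 9 genes of the liver that modify drugs and other foreign compounds without a cytochrome P450. They are CES1, CES2, FMO4, FMO5, AOX1, XDH, EPHX1, EPHX2 and MAOA, and were taken as every array probe whose transcript accession belongs to one of these genes. They were measured by 13 of the 42405 probes, and all 9 were among the 22214 genes tested. The enzymes were followed in HepaRG, a human hepatoma cell line whose bipotent progenitors give hepatocyte-like and biliary-like cells, on 20 one-color arrays with 4 independent biological replicates per condition. Cells were harvested at the progenitor stage (D4), at D15, and at D30 after a further period without DMSO (D30 − DMSO) or with 2% DMSO from day 15 to day 30 (D30 + DMSO). In the last condition, DMSO-treated cells were kept for 4 more days without DMSO (D34 ± DMSO). The medium of every condition held serum, insulin and hydrocortisone, so no condition is free of these hormones. HepaRG is 1 tumor-derived line, and its cultures hold both cell types.

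Phase I reactions add or uncover a polar group on a compound, which phase II enzymes then conjugate. Carboxylesterases and epoxide hydrolases do this by adding water, whereas flavin monooxygenases, aldehyde oxidase, xanthine dehydrogenase and monoamine oxidase oxidize their substrates. The liver is rich in most of them, and several also act on the body's own lipids, purines and amines.

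All levels below are log2 values of the processed signal scaled to the 75th percentile of its array, so that 0 is that percentile and a step of 1 is 2-fold. Levels of different probes are not compared, since probes bind with different strength. Errors are the SD of 4 arrays or limma's standard error (SE), and a gene was called where it differed by over 2-fold with a Benjamini-Hochberg adjusted p below 0.005. The arrays were alike in quality, with between 61.1% and 74.2% of the spots well above background and correlations of replicates between 0.955 and 0.992. The arrays lay on 4 slides, and slide 4, read in a second scan session, held every replicate 4 plus the third replicate of D15 and the third of D30 + DMSO. Deviations of arrays on the same slide from their condition means correlated positively, with a median r of 0.388 across genes over 44 pairs of arrays. Replicate 4 of D4 gave the highest D4 level for 6 of the 9 enzymes, so values without it, or within slides, are given beside several results.

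Of the 13 probes, 12 were well above background on all 20 arrays. The second FMO5 probe reached this level on 3 of the 4 D4 arrays and on every other array. No probe was saturated. The probe with the highest mean signal stood for each gene, and the arrays tie these probes to the RefSeq transcripts NM_001025195 (CES1), NM_003869 (CES2), NM_002022 (FMO4), NM_001144829 (FMO5), NM_001159 (AOX1), NM_000379 (XDH), NM_000120 (EPHX1), NM_001979 (EPHX2) and NM_000240 (MAOA). Over the 5 conditions, 5 enzymes changed by limma's F-test (Bonferroni-adjusted p below 0.001, over 3-fold), namely FMO4, FMO5, AOX1, XDH and EPHX2, against 5.37% of all genes. One-way analysis of variance, the test named in the study's methods, called 4 of the 9.

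**Figure D1:**
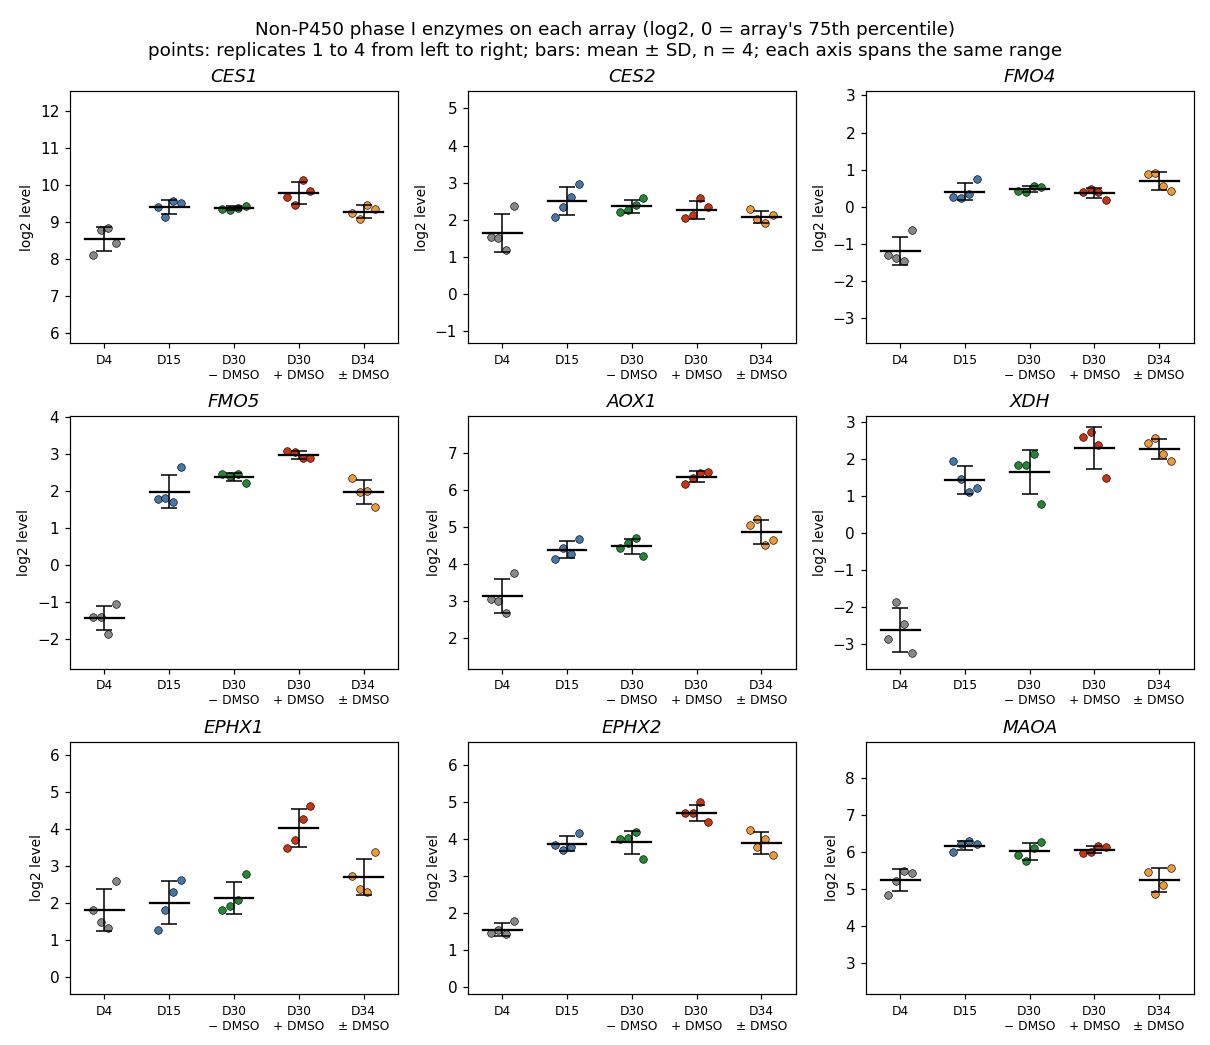
Log2 level (y axis, 0 = 75th percentile of the array) of the 9 enzymes on each array, with replicates 1 to 4 of each condition as points from left to right and the mean ± SD as bars (n = 4). FMO5, XDH and EPHX2 are low on every D4 array, AOX1 and EPHX1 are highest with DMSO, and MAOA at D34 ± DMSO lies at its D4 level.

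From D4 to D15, before any DMSO, 5 of the 9 enzymes rose, against 5.72% of all genes called higher, and none was called lower, against 3.84%. XDH, FMO5, EPHX2, FMO4 and AOX1 made up this group, with rises between 2.38-fold and 16.4-fold. The median change of the 9 enzymes was 1.25 on the log2 scale, whereas that of all genes was 0.02. The hepatocyte markers moved in the same step, as all 8 of the list rose and their summed scaled signal went from between 80600 and 182000 at D4 to between 708000 and 1070000 at D15. In these bulk cultures, fewer hepatocyte-like cells and less RNA per cell cannot be told apart, and the part of the cell mixture in the rise of the enzymes was not tested. Of the biliary and progenitor markers, 1 of the 5 tested rose, and EPCAM and CFTR were not well above background on any array. Stromal markers went the other way, from a summed signal between 12300 and 20000 to one between 5390 and 8330, with 2 of the 5 tested markers lower, and THY1 was not well above background at either stage. The endothelial markers, with a summed signal of 148 to 201 at D4 and 123 to 155 at D15, and the leukocyte markers, with 1400 to 2060 and 2690 to 3010, had no gene called.

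**Figure D2:**
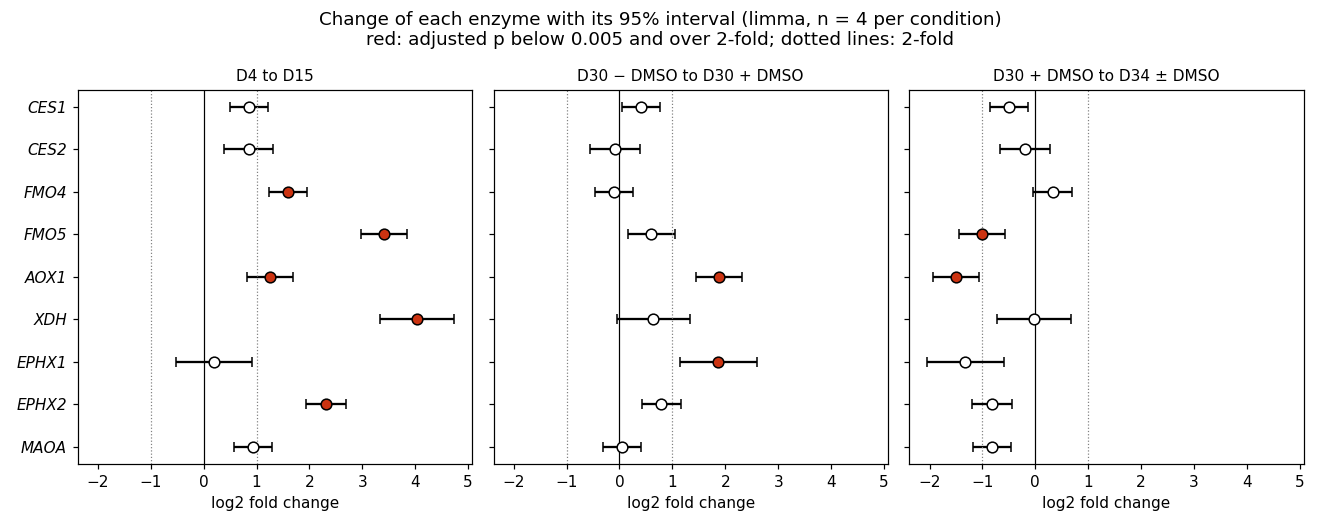
Log2 fold change (x axis) of each enzyme in 3 comparisons with its 95% interval (limma, n = 4 per condition); red points passed the adjusted p and the 2-fold limit, which dotted lines mark. XDH and FMO5 show the largest rises from D4 to D15, whereas AOX1 and EPHX1 are the red points for DMSO addition, and AOX1 and FMO5 those for its removal.

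XDH, xanthine dehydrogenase, turns hypoxanthine into xanthine and uric acid in the last steps of purine breakdown. On the 4 D4 arrays its level was -2.84, -1.85, -2.45 and -3.24, and on the D15 arrays 1.95, 1.47, 1.11 and 1.22. The groups lay far apart, and the mean moved from -2.60 ± 0.59 to 1.44 ± 0.37 (SD, n = 4), a 16.4-fold rise (limma, log2 fold change 4.03, SE 0.33, adjusted p = 3.61e-08). Within the 3 slides that held both stages, the difference was between 3.92 and 4.78. XDH then read 1.84, 1.85, 2.13 and 0.79 at D30 − DMSO, and 2.60, 2.74, 2.37 and 1.48 at D30 + DMSO. These conditions overlapped, with a difference of 0.64 (95% interval -0.05 to 1.34, adjusted p = 0.214), and replicate 4 was the lowest array in both. Within slide 3 the difference was 0.83 and within slide 4 it was 1.14. At D34 ± DMSO the levels were 2.44, 2.56, 2.14 and 1.94, and the difference from D30 + DMSO was -0.02 (95% interval -0.72 to 0.67), with a direction that turned under quantile normalization (0.06) and normexp correction (0.03). In the order of its levels, XDH thus had a low D4 and 4 later conditions of which no neighbours in that order differed beyond their spread.

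AOX1, aldehyde oxidase, is the nearest relative of xanthine dehydrogenase; both carry a molybdenum cofactor, and AOX1 oxidizes aldehydes and the nitrogen rings of many drugs. Its level was 3.07, 3.00, 2.67 and 3.77 at D4 and 4.13, 4.44, 4.28 and 4.67 at D15, which did not overlap. The rise was 2.38-fold (limma, log2 fold change 1.25, SE 0.21, adjusted p = 0.000156). Within slides it was 1.06, 1.77 and 0.71, the last on slide 4. It was not called in a fit of only these 8 arrays (adjusted p = 0.00556) or by the methods' t-test (adjusted p = 0.0232), and its second probe, at 1.08, missed the limit (adjusted p = 0.00611). At D30 − DMSO the level was 4.44, 4.58, 4.69 and 4.23, so that nothing beyond the spread separated it from D15 (0.10, 95% interval -0.34 to 0.54).

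With DMSO, AOX1 read 6.16, 6.33, 6.46 and 6.49, above every array of the other conditions. The 3.68-fold rise over D30 − DMSO (limma, log2 fold change 1.88, SE 0.21, adjusted p = 3.9e-06) was 1.81 within slide 3 and 2.25 within slide 4. After removal the arrays gave 5.06, 5.22, 4.52 and 4.65, a 2.82-fold fall (limma, log2 fold change -1.50, SE 0.21, adjusted p = 3.36e-05), which the methods' t-test did not call (adjusted p = 0.00589). Addition and removal share the D30 + DMSO arrays. The comparison that leaves these out, D30 − DMSO with D34 ± DMSO, gave 0.38 (95% interval -0.06 to 0.82, adjusted p = 0.444) with overlapping arrays. The second AOX1 probe gave log2 fold changes of 1.71 on addition (adjusted p = 0.000167) and -1.36 on removal (adjusted p = 0.00114), both called.

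AOX1 was called on DMSO addition and its relative XDH was not, so the promoter windows of both are printed here, from RefSeq on GRCh38.p14. Each runs from 250 bases before to 50 bases after the annotated start. The AOX1 window is chr2:200585764-200586063 on the plus strand, and the XDH window is chr2:31414693-31414992 on the minus strand. Capitals mark matches, on either strand, to any of 7 motifs: TATAAA, the TATA box; the nuclear receptor half-site AGGTCA; its variant AGTTCA; TGACNNNGC, the antioxidant response core, which can overlap the reverse of the first half-site; GCGTG, the dioxin response core; GTTAAT, an HNF1 half-site; and the GC box GGGCGG.

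AOX1: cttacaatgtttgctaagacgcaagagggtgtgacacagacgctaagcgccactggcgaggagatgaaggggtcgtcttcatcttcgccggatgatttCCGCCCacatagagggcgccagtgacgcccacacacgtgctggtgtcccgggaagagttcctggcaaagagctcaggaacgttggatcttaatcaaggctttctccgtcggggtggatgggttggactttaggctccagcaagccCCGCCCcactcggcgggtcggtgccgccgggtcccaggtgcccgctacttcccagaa

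XDH: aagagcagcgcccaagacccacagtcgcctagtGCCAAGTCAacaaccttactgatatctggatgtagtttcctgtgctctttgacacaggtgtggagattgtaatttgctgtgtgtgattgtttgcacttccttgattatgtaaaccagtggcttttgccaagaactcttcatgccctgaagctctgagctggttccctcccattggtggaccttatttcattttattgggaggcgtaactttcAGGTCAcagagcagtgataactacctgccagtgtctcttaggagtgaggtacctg

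The AOX1 window held GGGCGG at bases -152 and -7 from the start, on the reverse strand, and no match to the other motifs. Its GC content was 60%, with 22 CpG and an observed over expected CpG ratio of 0.816. The XDH window held AGGTCA at base -5 and the reverse of TGACNNNGC at base -217. Its GC content was 47%, with 3 CpG and a ratio of 0.181. Over 35116 windows of this length, the median GC content was 58.7% and the median ratio 0.579, so AOX1 lay above and XDH below both medians. Of all windows, 45% held GGGCGG, 13.8% AGGTCA and 13.3% TGACNNNGC, so these matches are common. Of the other motifs, TATAAA was held by 11.5% of all windows, AGTTCA by 10.4%, GCGTG by 36.5% and GTTAAT by 6.88%. A match is a match of letters, not a measured site.

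FMO5 and FMO4 are flavin monooxygenases of the endoplasmic reticulum; FMO5 differs from its relatives in inserting oxygen next to carbonyl groups. FMO5 read -1.40, -1.39, -1.85 and -1.05 at D4 and 1.78, 1.81, 1.71 and 2.65 at D15, a 10.6-fold rise (limma, log2 fold change 3.41, SE 0.21, adjusted p = 1.06e-09). The second FMO5 probe gave 3.33 in this step. At D30 the levels were 2.45, 2.40, 2.45 and 2.22 without DMSO and 3.08, 3.06, 2.90 and 2.89 with it. These did not overlap, but the difference of 0.60 (95% interval 0.17 to 1.04, adjusted p = 0.0498) was under 2-fold and was not called.

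After DMSO removal, FMO5 read 2.35, 1.98, 2.00 and 1.57, and had fallen 2.01-fold from D30 + DMSO (limma, log2 fold change -1.01, 95% interval -1.44 to -0.57, adjusted p = 0.00144). This value lies on the 2-fold line. It was no longer called without D30 + DMSO replicate 1 or replicate 2 (-0.98 in both), without D34 ± DMSO replicate 4 (-0.87), with quantile normalization (-0.93), with normexp correction (-0.92) or with the arrays of slides 1 to 3 (-0.96). The adjusted p also missed the limit in a fit of only the compared arrays (limma, 0.00585) and by the methods' t-test (0.0141). The second FMO5 probe fell short by its p (-1.67, adjusted p = 0.00517), although its arrays did not overlap.

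FMO4 rose from -1.30, -1.38, -1.47 and -0.64 at D4 to 0.27, 0.24, 0.33 and 0.74 at D15, a 3.02-fold change (limma, log2 fold change 1.59, SE 0.17, adjusted p = 1.24e-06), which the methods' t-test did not call (adjusted p = 0.00601). No later step was called. The means were 0.48 ± 0.09 at D30 − DMSO, 0.37 ± 0.13 at D30 + DMSO and 0.70 ± 0.24 at D34 ± DMSO (SD, n = 4). The difference with DMSO was -0.11 (95% interval -0.47 to 0.26) and that after removal 0.33 (95% interval -0.04 to 0.69), neither of which was called.

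The epoxide hydrolases open reactive epoxides to diols; EPHX1 is the microsomal enzyme of drug and hydrocarbon epoxides, and EPHX2 the soluble enzyme of fatty acid epoxides. EPHX1 was not called in the first 2 steps. It read 1.82, 1.48, 1.31 and 2.58 at D4, 1.28, 1.81, 2.28 and 2.61 at D15, and 1.81, 1.92, 2.07 and 2.77 at D30 − DMSO. The D4 to D15 difference was 0.20 (95% interval -0.53 to 0.92), and its direction turned with the slide as a block (-0.03). With DMSO the arrays gave 3.47, 3.70, 4.26 and 4.60, above all others, a 3.65-fold rise over D30 − DMSO (limma, log2 fold change 1.87, SE 0.34, adjusted p = 0.000679). The methods' t-test did not call it (adjusted p = 0.0155). Within slides 3 and 4 the difference was 1.78 and 1.66.

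After DMSO removal EPHX1 was at 2.73, 2.36, 2.30 and 3.37. All 4 arrays lay below those with DMSO, 2.50-fold lower on average, yet the adjusted p of 0.00898 missed the limit (limma, log2 fold change -1.32, SE 0.34). Replicate 4 was the highest array of D4, D15, both D30 conditions and D34 ± DMSO, and slide 4 held each of them. With the slide as a block the fall was called (limma, -1.09, adjusted p = 7.92e-05), as it was on the arrays of slides 1 to 3 (-1.13, adjusted p = 0.00377) and without D34 ± DMSO replicate 4 (-1.55, adjusted p = 0.00441). Within slides 3 and 4 the difference was -1.07 and -1.06. D34 ± DMSO and D30 − DMSO overlapped, with a difference of 0.54 (95% interval -0.18 to 1.27).

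The RefSeq table gives 3 start windows for EPHX1 on the plus strand of chromosome 1 (GRCh38.p14), which are shown because this enzyme was called on DMSO addition but not from D4 to D15. They are chr1:225809874-225810173, chr1:225823961-225824260 and chr1:225825104-225825403. The array probe does not tell which start was used. Capitals mark the same motifs as above.

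EPHX1 upstream start: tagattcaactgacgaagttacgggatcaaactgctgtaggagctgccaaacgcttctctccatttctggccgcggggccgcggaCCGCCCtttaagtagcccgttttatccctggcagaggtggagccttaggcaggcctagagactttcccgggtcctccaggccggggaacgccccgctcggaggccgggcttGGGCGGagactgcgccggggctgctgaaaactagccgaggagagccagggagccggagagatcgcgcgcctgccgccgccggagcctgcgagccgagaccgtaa

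EPHX1 middle start: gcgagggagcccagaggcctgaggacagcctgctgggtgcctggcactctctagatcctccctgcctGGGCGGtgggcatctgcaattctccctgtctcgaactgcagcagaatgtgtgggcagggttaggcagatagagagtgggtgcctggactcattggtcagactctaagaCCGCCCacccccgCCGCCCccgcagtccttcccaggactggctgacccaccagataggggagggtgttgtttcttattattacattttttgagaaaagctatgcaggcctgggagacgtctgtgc

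EPHX1 downstream start: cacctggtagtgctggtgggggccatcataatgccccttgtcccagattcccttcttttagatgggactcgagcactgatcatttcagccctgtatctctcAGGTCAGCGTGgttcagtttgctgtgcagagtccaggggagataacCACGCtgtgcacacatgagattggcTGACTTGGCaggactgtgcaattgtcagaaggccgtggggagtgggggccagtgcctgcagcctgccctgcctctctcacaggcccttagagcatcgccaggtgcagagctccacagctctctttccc

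The upstream window was CpG-rich, with 29 CpG and a ratio of 0.918, and held GGGCGG at base -54 and its reverse at -165. The middle window had 8 CpG (ratio 0.307), with GGGCGG at -183 and its reverse at -75 and -62. The downstream window had 5 CpG (ratio 0.203), and held AGGTCA at -149 directly followed by GCGTG at -143, the reverse of GCGTG at -103 and TGACNNNGC at -78. Windows were found for 7 of the 9 enzymes, 10 in all, for all but CES1 and EPHX2. Among the windows of CES2, FMO4, FMO5 and MAOA, FMO5 held the reverse of TATAAA at base -30, the reverse of GTTAAT at -185 and GGGCGG at -109. MAOA held GGGCGG in reverse at 4 places and GCGTG at base 28. FMO4 held the reverse of GCGTG at -14 and of GGGCGG at -42, and CES2 held GCGTG at several places.

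EPHX2 read 1.46, 1.55, 1.43 and 1.80 at D4 and 3.85, 3.70, 3.79 and 4.16 at D15, a 4.99-fold rise (limma, log2 fold change 2.32, SE 0.18, adjusted p = 1.7e-08). It stood at 3.92 ± 0.31 at D30 − DMSO (SD, n = 4), 4.71 ± 0.22 with DMSO and 3.90 ± 0.29 after removal. The arrays with DMSO did not overlap either neighbour. Both differences passed the adjusted p but were under 2-fold, with 0.79 on addition (95% interval 0.42 to 1.17, adjusted p = 0.00373) and -0.81 on removal (95% interval -1.19 to -0.44, adjusted p = 0.00257), so neither was called.

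The carboxylesterases cleave esters and amides of drugs in the endoplasmic reticulum, CES1 mainly in liver and CES2 in gut and liver. CES1 has a near-identical pseudogene, and the probe sequences were not used here, so its signal may include that copy. By the CES1 probe with the highest signal, the level was 8.12, 8.78, 8.83 and 8.43 at D4 and 9.41, 9.12, 9.56 and 9.51 at D15. The groups did not overlap, but the change of 1.81-fold (log2 fold change 0.86, SE 0.17, adjusted p = 0.000842) was under 2-fold. The other 2 CES1 probes gave 1.34 and 1.36 in this step (adjusted p = 6.81e-05 and 1.86e-06 with every probe tested), and both were called, so the choice of probe decides the call. With DMSO the CES1 probes differed from D30 − DMSO by 0.41, 0.65 and 0.68, and after removal by -0.50, -0.96 and -0.97, none of which was called. The probe used for the gene had the smallest change in all 3 comparisons.

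CES2 was called in none of the comparisons made here. Its means were 1.65 ± 0.51 at D4, 2.50 ± 0.38 at D15, 2.36 ± 0.17 at D30 − DMSO, 2.27 ± 0.24 at D30 + DMSO and 2.08 ± 0.16 at D34 ± DMSO (SD, n = 4). No neighbours in the order of its levels differed beyond their spread. The D4 to D15 change of 0.85 missed the limits (limma, adjusted p = 0.00853), and D4 replicate 4, at 2.38, lay among the D15 arrays. Without that array the change was 1.1 (adjusted p = 0.000351) and was called. With DMSO the difference was -0.09 (95% interval -0.56 to 0.39).

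**Figure D3:**
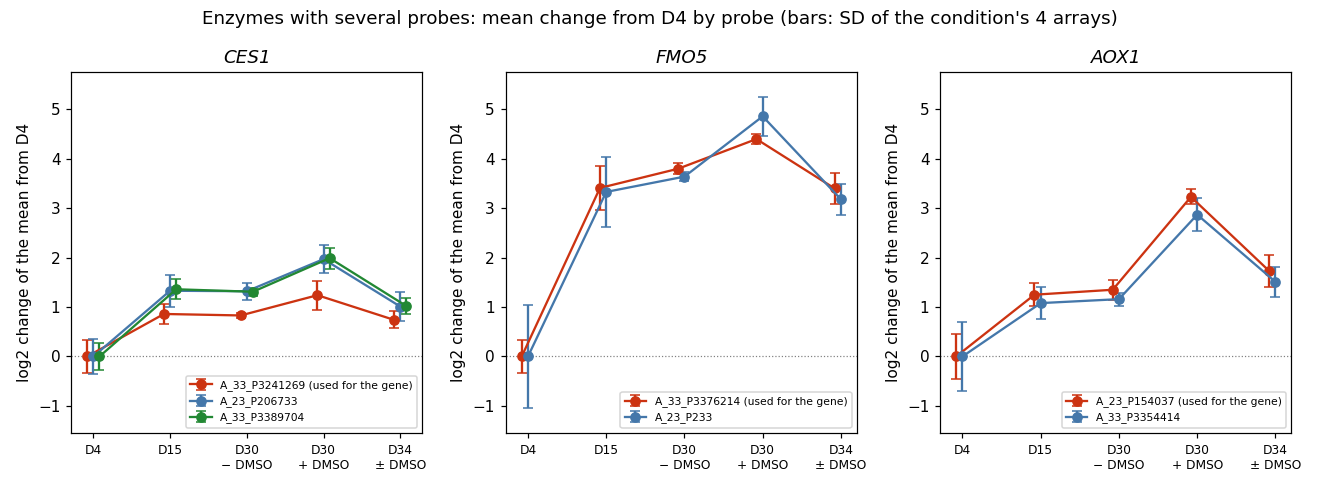
Change of the mean log2 level from D4 (y axis) for each probe of CES1, FMO5 and AOX1 over the 5 conditions (x axis); bars are the SD of the 4 arrays of the condition. The probes of a gene follow the same course, but the CES1 probe used for the gene stands at 0.86 at D15, and its other probes at 1.34 and 1.36.

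MAOA, monoamine oxidase A of the outer mitochondrial membrane, removes the amine of serotonin and noradrenaline and of some drugs. It read 4.84, 5.22, 5.48 and 5.42 at D4 and 6.00, 6.20, 6.29 and 6.22 at D15, with no overlap. The difference of 0.93 passed the adjusted p (limma, SE 0.17, adjusted p = 0.000362) but was under 2-fold; without D4 replicate 3 it was 1.01 and was called (adjusted p = 0.000448). DMSO left no difference beyond the spread (0.04, 95% interval -0.31 to 0.40), and the direction turned with quantile normalization (-0.01), normexp correction (-0.01) and the slide as a block (-0.12).

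The MAOA arrays at D34 ± DMSO, 5.45, 4.86, 5.11 and 5.56, lay below every D15 and D30 array. The mean differed by -0.81 from D30 + DMSO (limma, adjusted p = 0.00167), by -0.77 from D30 − DMSO (adjusted p = 0.0101) and by 0.00 from D4 (95% interval -0.35 to 0.36). Neither of the first 2 was called, as both were under 2-fold and the difference from D30 − DMSO also missed the adjusted p. MAOA was the only one of the 9 enzymes with an unadjusted p below 0.05 between D30 − DMSO and D34 ± DMSO. In that comparison limma called none of the 9, the methods' t-test none, and 1.51% of all genes were called in either direction.

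Between D15 and D30 − DMSO, limma called none of the 9 enzymes, none had an unadjusted p below 0.05, and the methods' t-test called none. Of all genes, 0.0135% were called higher there and 0% lower. Over the whole protocol from D4 to D30 + DMSO, 7 of the 9 rose, against 8.98% of all genes called higher, and none fell, against 9.48%. CES2 (0.62, adjusted p = 0.0329) and MAOA (0.82, adjusted p = 0.000671) were the exceptions. XDH was 29.7-fold, FMO5 21.2-fold, AOX1 9.41-fold, EPHX2 8.91-fold, EPHX1 4.62-fold, FMO4 2.97-fold and CES1 2.35-fold higher. The CES1 call was lost with quantile normalization (0.68), with normexp correction (0.65) and on the arrays of slides 1 to 3 (0.98), while its other probes gave 1.97 and 1.98. The methods' t-test called 5 of the 9, without CES1 (adjusted p = 0.00739) and EPHX1 (adjusted p = 0.00658).

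DMSO addition was called for AOX1 and EPHX1, 2 of the 9 enzymes, both higher, against 1.74% of all genes called higher. None of the 9 was called lower, against 4.23% of all genes. DMSO removal was called for 2 enzymes, AOX1 and FMO5, both lower, against 1.99% of all genes, and none was called higher, against 5.12%. This step also spans the 4 further days of culture. The methods' t-test called 1 enzyme on addition and none on removal, and the shares above, which are limma's, do not apply to these counts. Stromal markers moved in the same steps, with a summed signal between 4630 and 10200 at D30 − DMSO, 1200 and 2110 at D30 + DMSO and 4920 and 10800 at D34 ± DMSO. Of their 5 tested markers, 2 were lower with DMSO and 2 higher after removal. The hepatocyte markers, with a summed signal of 908000 to 957000, 1030000 to 1750000 and 874000 to 1100000 in these conditions, had 1 of 8 lower on addition and 1 higher on removal. Of the 5 tested biliary and progenitor markers, SOX9 rose and SPP1 fell on addition, and the reverse was called on removal. Endothelial markers (1 of 3 tested) and leukocyte markers (2 of 3 tested) had none called in either step. The part of the cell mixture in the changes of AOX1, EPHX1 and FMO5 was not tested.

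Enzymes of one family were also compared directly. Their difference within an array cancels what scales a whole array, and its change between conditions was compared with exact two-sided permutation tests. There were 12 such tests, and the smallest p that 4 arrays against 4 allow is 0.0286. The Benjamini-Hochberg adjusted p of tests at this value was 0.0429, which depends on how many of the 12 reached it. The log2 change of AOX1 minus that of XDH was -2.78 from D4 to D15, 1.23 on DMSO addition and -1.47 on removal (exact permutation p = 0.0286, adjusted 0.0429 in each). The addition value ran from 0.92 to 1.44 when 1 array was left out. The exact permutation p became 0.0571 without D30 − DMSO replicate 1 or 3, or without any one of the D30 + DMSO arrays. The conditions still did not overlap in these cases, so the larger p does not come from overlapping arrays. A p of 0.0286 can still be reached with an array left out. In these cases another split of the arrays gave an absolute difference at least as large, so this result depends on single arrays. With the second AOX1 probe the addition value was 1.07 and the groups overlapped (exact permutation p = 0.0857). The change of FMO4 minus that of FMO5 was -1.81 from D4 to D15, -0.71 on addition and 1.34 on removal, and the arrays were apart in each step (exact permutation p = 0.0286, adjusted 0.0429).

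For the epoxide hydrolases, the change of EPHX1 minus that of EPHX2 was -2.12 from D4 to D15 (exact permutation p = 0.0286, adjusted 0.0429). Their changes were not shown to differ on DMSO addition (1.07, exact permutation p = 0.114, adjusted 0.137) or removal (-0.51, exact permutation p = 0.343, adjusted 0.374). Without D30 − DMSO replicate 4 the addition value was 1.43 (exact permutation p = 0.0286). CES1 gained 0.49 more than CES2 on DMSO addition (exact permutation p = 0.0286, adjusted 0.0429), but 0.31 with overlapping arrays under quantile normalization. The esterases differed by 0.01 from D4 to D15 (exact permutation p = 0.971) and by -0.31 on removal (exact permutation p = 0.0857). With the other CES1 probes the removal value was -0.77 and -0.78, and without D34 ± DMSO replicate 3 it was -0.42 (exact permutation p = 0.0286 in each).

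**Figure D4:**
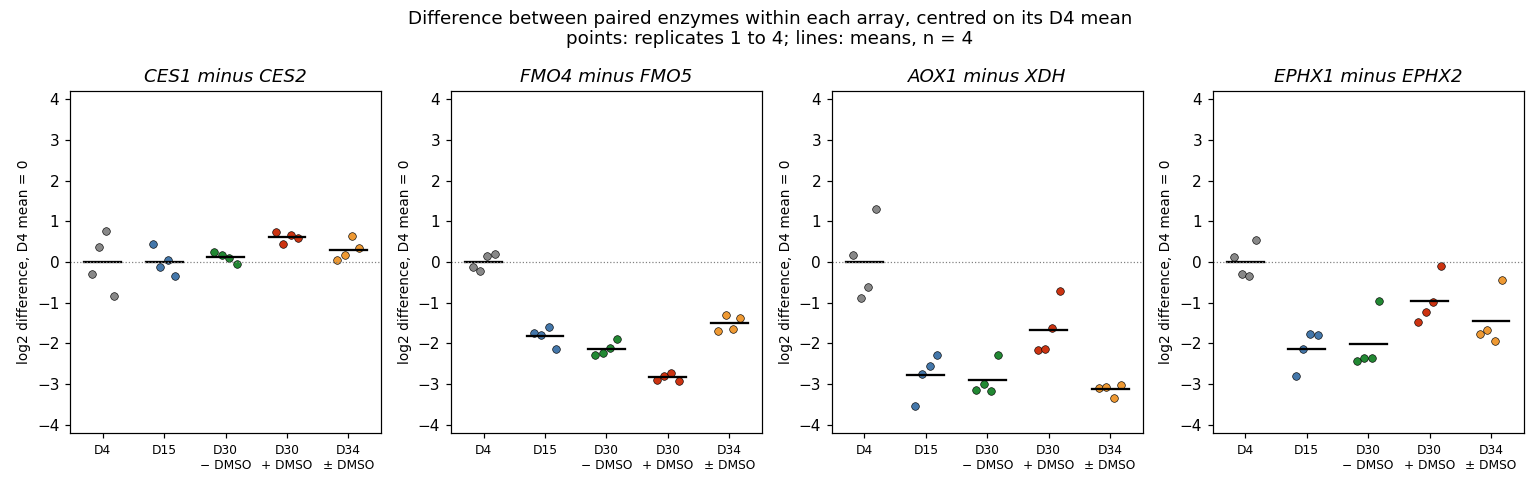
Difference of log2 values between paired enzymes within each array (y axis, D4 mean set to 0) for the 5 conditions (x axis), with replicates 1 to 4 as points and means as lines (n = 4). AOX1 minus XDH moves by -2.78 from D4 to D15 and by 1.23 with DMSO, and FMO4 minus FMO5 is lowest at D30 + DMSO.

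Of 24 other non-P450 phase I enzymes, 20 were tested. From D4 to D15, 6 rose, against 5.72% of all genes, and none fell, against 3.84%, with a median log2 fold change of 0.95. HSD11B1, which reactivates cortisone, rose 24.8-fold, PON1, the serum paraoxonase, 13-fold, and AADAC, arylacetamide deacetylase, 11.4-fold. The esterase CES5A, whose probe was too close to background on all D4 arrays, was at least 5.55-fold higher. On DMSO addition none rose, with a median of 0.21. FMO1 fell 2.11-fold (limma, log2 fold change -1.08, adjusted p = 0.000239), 1 of the 20, near the 4.23% of all genes called lower. This call was lost with quantile normalization, with normexp correction, with the methods' t-test, on slides 1 to 3 and without D30 + DMSO replicate 3. On removal FMO1 rose 2.29-fold (limma, log2 fold change 1.20, adjusted p = 6.54e-05), against 5.12% of all genes called higher. PON3 fell 2.02-fold, against 1.99% called lower. Of these 2 calls, 1 was left with quantile normalization and without D30 + DMSO replicate 1 or 3 or D34 ± DMSO replicate 2 or 4, and 0 with normexp correction, with the arrays compared alone, with the methods' t-test and on slides 1 to 3. Between D30 − DMSO and D34 ± DMSO FMO2 was 3.05-fold lower, a call lost with quantile normalization, normexp correction, the methods' t-test, the slide block, either other filter, the arrays compared alone and slides 1 to 3, and without any one D30 − DMSO array or D34 ± DMSO replicate 2, 3 or 4. In that comparison 1.51% of all genes were called. From D4 to D30 + DMSO 13 of the 20 rose, against 8.98% of all genes. CES3, EPHX4 and NQO1 had a probe that was too dim to test, and POR was not named on the array.

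All 8 genes of molybdenum cofactor synthesis and of the other molybdenum enzymes were tested, since AOX1 and XDH depend on this cofactor. MOCS1, which starts the synthesis (2.43-fold), MTARC2, an amidoxime reductase (2.38-fold), and SUOX, sulfite oxidase (2.01-fold), rose from D4 to D15, against 5.72% of all genes. None of the 8 was called on DMSO addition, where the median was 0.53. SUOX was the one called on removal, 2.07-fold lower (limma, log2 fold change -1.05, adjusted p = 0.00154), against 1.99% of all genes. That call was lost with normexp correction, with the arrays compared alone, with the methods' t-test and without D30 + DMSO replicate 3 or D34 ± DMSO replicate 3, and the methods' t-test called 0 of the 8 from D4 to D15. The removal count was 2 without D30 + DMSO replicate 1 or D34 ± DMSO replicate 2.

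The drug-metabolizing P450 genes, the other branch of phase I, gave the measure of comparison. Of 13 tested, 8 rose from D4 to D15, against 5.72% of all genes. On DMSO addition 8 rose, against 1.74%, with a median of 2.01. On removal 5 fell, against 1.99%, with a median of -1.45. With probes well above background on all 20 arrays, 3 were called from D4 to D15 and 5 on addition, and the methods' t-test called 4 from D4 to D15 and 3 on removal. CYP2E1 rose 26.9-fold, CYP2B6 19.8-fold, CYP3A4 16.7-fold and CYP3A7 7.54-fold with DMSO. The medians of the 9 enzymes were 0.60 on addition and -0.81 on removal, and those of all genes 0.03 and -0.04. These are descriptions, as no test compared the lists.

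**Figure D5:**
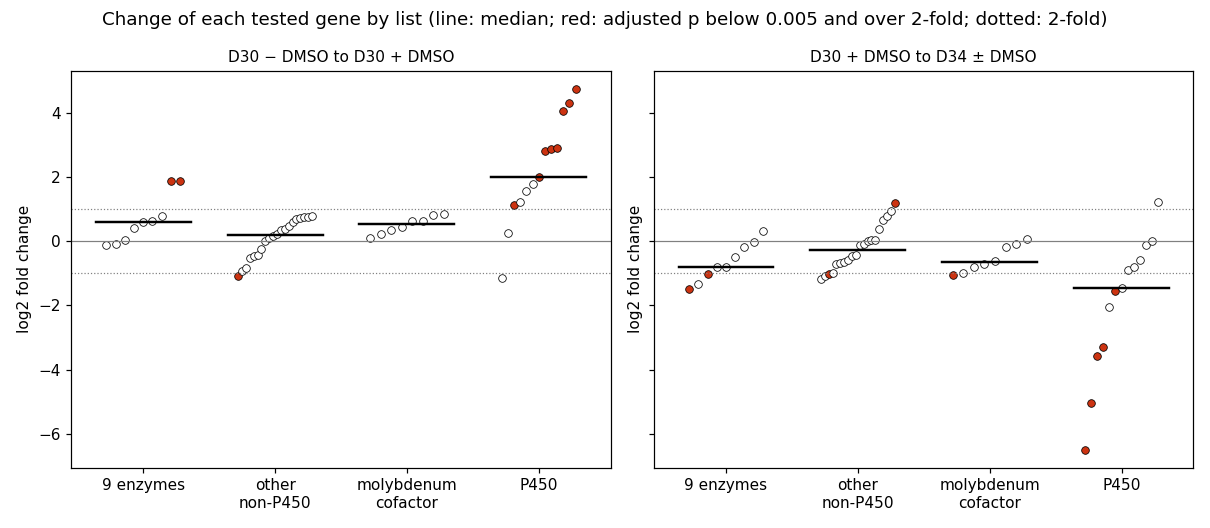
Log2 fold change (y axis) of each tested gene on DMSO addition (left) and removal (right), by list (x axis); lines are list medians and red points passed the adjusted p and the 2-fold limit. AOX1 and EPHX1, at 1.88 and 1.87, are the red points of the 9 enzymes on the left, within the range of the P450 genes and below CYP2E1, CYP2B6 and CYP3A4.

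Over the 20 arrays, which share slides and differentiation stage, the courses of the enzymes resembled each other to different degrees. Pearson's r ran from 0.98 for FMO5 with EPHX2 to 0.32 for EPHX1 with MAOA, and XDH with AOX1 had 0.76. Among 12303 other named genes, those most like AOX1 were BHMT2 (r = 0.988) and AQP11 (0.98), and EPHX1 resembled MAN1A2 (0.97). XDH was closest to C2orf72 (0.989) and F11 (0.982), FMO5 to HRG and TRIM10 (0.988 each), and EPHX2 to CRYL1 (0.992) and PECR (0.99). FMO4 resembled C5 and ITIH1 (0.983 each), CES1 GSTA2 (0.933) and COX6A2 (0.93), CES2 RNF5 and TMEM116 (0.945 each), and MAOA PNPLA4 (0.952) and SFT2D3 (0.918).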

How the data were processed

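RNA of HepaRG cells was labelled with Cy3 and hybridised to 20 Agilent 8x60K arrays, 4 for each of 5 conditions. The authors deposited Feature Extraction output (10.7.1.1 in the file headers, 10.7.3.1 in the submitters' processing notes), in which the processed signal is an intensity corrected for background within the array. Deposited flags, of other units, mark outlier spots and spots above background. A deposited matrix gives log2 values against a baseline per probe. For 21535 probes it matched the values used here after 1 baseline per probe, with a shift of at most 0.0188 between arrays. Its column medians lay between -0.204 and 0.171, and it was an alternative only.

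Here, spots of a probe were averaged without outlier spots, divided by the 75th percentile of the array, floored at 1 and taken to log2. In at least 1 condition, all 4 arrays had to show the probe above background, which kept 26531 of 42405 probes. Probes were named through RefSeq accessions (24826 named). The other 17579 kept the array's own transcript name, and each such name was treated as a gene. The probe of highest mean stood for a gene, giving 22214 genes. Shares of all genes thus include unnamed transcripts. One limma model (limma 3.58.1, R 4.3.3) held 5 condition means, with the study's thresholds but not its t-test, because each condition has 4 arrays. Adjusted p-values come from all genes tested. The enzymes, the gene lists and markers were chosen with earlier results of these data known, and listed genes were named where called, at most the 4 largest changes per list and comparison. The genes most like an enzyme are the 2 with the highest r, of which 1 is not reported here. Tests on simulated data with known changes were run for each calling step. The number of arrays limits the precision. The ChIP-seq of the study was not analysed here.

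The alternatives were quantile normalization, normexp with an offset of 50 followed by quantile normalization, the authors' matrix, a floor of 10, other filters, every probe, the slide and the replicate number as blocks, fitting only the compared arrays, the t-test and analysis of variance named in the methods, an adjusted p below 0.05 and each array left out. Leaving out slide 4 was added after the data were seen.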

Additional observations from a re-analysis of the deposited data

Results flagged for a closer look

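In 4 of 65 sets of 4 arrays (13 probes in 5 conditions), the highest array stood away from the other arrays of its condition beyond Dixon's 95% critical value, where chance gives about 1 in 20. FMO5 at D15 was highest in replicate 4, with a gap of 0.84 on the log2 scale to the next array, or 0.89 of the range. The second FMO5 probe (A_23_P233) at D30 − DMSO was highest in replicate 4, with a gap of 0.17, or 0.879 of the range. The second AOX1 probe (A_33_P3354414) at D15 was highest in replicate 4, with a gap of 0.64, or 0.941 of the range. The CES1 probe A_23_P206733 at D30 − DMSO was highest in replicate 4, with a gap of 0.32, or 0.887 of the range. These values come from 2 arrays, D15 replicate 4 and D30 − DMSO replicate 4, both on slide 4, and the part of the slide in these values was not tested.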

How the results depend on the processing

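Of 90 counts of called enzymes under other settings 84 stayed within 1.5 times the value reported, as did 138 of 140 with an array left out, and no member's call changed when the array left out belonged to neither condition compared. The methods' t-test called 3 enzymes in place of 5 from D4 to D15, 1 in place of 2 on DMSO addition and 0 in place of 2 on removal. For removal the count was 1 with quantile normalization, normexp correction or the arrays compared alone, and 1 to 2 with an array left out. The counts with an array left out were 5 to 6 from D4 to D15, 2 on addition, 7 from D4 to D30 + DMSO and 4 to 5 for the F-test. Replicate numbers were not taken to pair the arrays, since the labels name nothing shared. Same-numbered arrays did correlate more, with a median r of 0.275 over 40 pairs against -0.169 for 120 other pairs. Of the 40 pairs, 27 lay above 0.1, as did 43 of the 120, and 10 of 20 arrays were closest to their own number. Slide 4 held every replicate 4, and the parts of number and slide were not separated. With the replicate block, EPHX1 on removal was called (-1.32, adjusted p = 9.01e-05) and no other member's call changed. Among pair tests, CES1 minus CES2 turned from 0.01 to -0.35 (quantile) and -0.43 (normexp) from D4 to D15, with -0.28 to 0.26 over left-out arrays. On addition it was 0.31 with quantile normalization, and on removal -0.77 and -0.78 with other CES1 probes and -0.42 to -0.22 over left-out arrays. AOX1 minus XDH on addition was 1.07 with the second AOX1 probe and 0.92 to 1.44 over left-out arrays, and EPHX1 minus EPHX2 0.79 to 1.43. Small uncalled differences turned sign. These were MAOA on addition (-0.01 with quantile and with normexp, -0.12 with the slide block, -0.04 to 0.13 over left-out arrays), XDH on removal (0.06 quantile, 0.03 normexp, -0.30 to 0.12 over left-out arrays) and EPHX1 from D4 to D15 (-0.03 slide block, -0.01 to 0.46 over left-out arrays). From D15 to D30 − DMSO they were XDH (-0.06, slide block), CES1 (0.08) and CES2 (0.07) on slides 1 to 3, and over left-out arrays CES1 (-0.12 to 0.02), CES2 (-0.28 to 0.01), EPHX1 (-0.09 to 0.35) and EPHX2 (-0.04 to 0.20). From D30 − DMSO to D34 ± DMSO EPHX2 ran from -0.17 to 0.09. Of 126 counts per list of called genes, 30 moved by over 1.5 times for the other non-P450 enzymes, 8 for the molybdenum genes and 15 for the P450 genes. The causes were not tested. The number of arrays per condition, 4, limits what small differences can show.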
